A study of Homo sapiens with 12 samples.

Results

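Endoplasmic reticulum associated degradation (ERAD) genes were followed in Sk-hep1 cells, an established line of human liver taken from ascites and labelled as an adenocarcinoma of endothelial type. The members were a list of 10 genes: DNAJB9, HERPUD1, SEL1L, SYVN1, EDEM1, EDEM2, EDEM3, DERL1, DERL2 and DERL3. A gene was represented by the probe set, the group of probes for a transcript, that carried its symbol alone and had the highest mean over 12 arrays. This found 9 of the 10 members among 19775 genes, since the probe set annotated to SYVN1 carries another symbol as well and SYVN1 was given no value. Cells spent 12 or 24 hours in a DMEM-based growth medium (GM) or a DMEM/F12-based medium rich in fat (HFM), with 3 arrays in each of the 4 groups. The line is grown in DMEM with fetal bovine serum, penicillin, streptomycin and L-glutamine, and the sources used here do not name the fat of HFM. The basal medium differed along with the fat, so their effects cannot be told apart. No label says that the 3 arrays of a group came from separate cultures, so the p-values measure just how far these samples spread, and that spread may be technical.

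ERAD removes proteins that fail to fold in the endoplasmic reticulum. Misfolded glycoproteins are marked by mannose trimming, handed to a membrane ubiquitin ligase complex, drawn through the membrane and destroyed by the proteasome in the cytosol. In the best known branch the ligase SYVN1 is held by the adaptor SEL1L, joined by HERPUD1 and the derlins. Many of these genes are targets of the unfolded protein response, in which the sensors ERN1, ATF6 and EIF2AK3 act through the factors XBP1, ATF6 and ATF4.

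RefSeq promoter sequences (build GRCh38.p14) were at hand for 8 of the 10 members, and the 250 bases before the transcription start were searched on both strands. The search used the endoplasmic reticulum stress element ERSE (CCAAT and CCACG parted by a fixed spacer), its other form ERSE-II (ATTGG, any base, then CCACG), the short CCACG that both contain, the XBP1 site TGACGTGG and the composite ATF4 site TGATGNAAT. The sequences of the 3 genes with the largest rises in HFM at 24 hours are shown 5′ to 3′ on the gene's strand, with matches in capitals (CGTGG is CCACG on the other strand).
HERPUD1, chr16:56931892-56932141, plus strand: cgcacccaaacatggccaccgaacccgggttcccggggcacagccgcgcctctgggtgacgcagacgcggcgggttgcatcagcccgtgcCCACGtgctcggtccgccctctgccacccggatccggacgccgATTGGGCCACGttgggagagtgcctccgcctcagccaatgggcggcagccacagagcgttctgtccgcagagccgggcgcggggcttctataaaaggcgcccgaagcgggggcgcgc
DNAJB9, chr7:108569624-108569873, plus strand: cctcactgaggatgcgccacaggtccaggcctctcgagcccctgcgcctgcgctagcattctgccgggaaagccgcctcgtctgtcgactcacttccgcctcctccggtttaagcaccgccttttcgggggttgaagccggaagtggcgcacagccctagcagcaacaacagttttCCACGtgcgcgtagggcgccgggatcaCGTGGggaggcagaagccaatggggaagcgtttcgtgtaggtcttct
SEL1L, chr14:81533854-81534103, minus strand: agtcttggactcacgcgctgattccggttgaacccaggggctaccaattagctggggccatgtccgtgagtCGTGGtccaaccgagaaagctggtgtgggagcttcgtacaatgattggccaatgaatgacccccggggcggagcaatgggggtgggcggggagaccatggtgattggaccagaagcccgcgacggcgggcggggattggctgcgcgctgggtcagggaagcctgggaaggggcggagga

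HERPUD1 held an ERSE-II match, ATTGGGCCACG, from 117 to 107 bases before its start. Such a match was present in 14 of 27305 promoters of this length, or 0.0513%. No member had an exact match to ERSE, the XBP1 site or the ATF4 site, which occur in 0.0806%, 0.667% and 0.916% of promoters. Only sequences with every fixed letter were counted, so near matches to these elements may be present. The short CCACG was found in 6 of the 8 members and in 33.3% of all promoters, and EDEM2 and DERL2 lacked it. These matches are letters in a window, and no binding was measured here.

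The 12 arrays had medians of 4.05 to 4.09 on the log2 scale of the deposited values, and 13130 genes that reached log2 4 on 3 arrays or more were tested. All 9 members passed this filter, 8 of them on all 12 arrays and DERL3 on 11, so no member passed it only through the group in which it was high. The median of the tested genes was 7.08 to 7.09 on the 3 HFM arrays at 24 hours and 7.38 on the first HFM array at 12 hours. On every other array it was 7.24 to 7.28. The low medians of HFM at 24 hours cannot be told apart from the medium and time of that group. The first HFM array at 12 hours also stood apart within its group, and its hybridisation controls lay with those of the 3 GM arrays at 12 hours. As a sign of RNA quality, ACTB read by its 3′ probe set minus ACTB read by its 5′ one was 1.02 to 1.12 log2 in GM and 1.53 to 1.64 in HFM at 24 hours, without overlap (exact two-sided permutation p = 0.1, the smallest that 3 against 3 arrays allow). For GAPDH it was 0.14 to 0.18 and 0.26 to 0.30 (exact permutation p = 0.1). Of 15 markers of the labelled endothelial type, 7 passed the filter: ENG, ROBO4 and FLT1 were at log2 4 or more on all 12 arrays, PECAM1 and NOS3 on 10, ESAM on 8 and ICAM2 on 7. In contrast, CDH5, VWF, KDR, TEK, TIE1, CLDN5, ERG and EMCN were below 4 on every array. Of the hepatocyte markers, 3 of 10 were at 4 or more on all arrays (TTR, SERPINA1 and CYP3A4) and ALB, APOA1 and APOB on none, and of the leukocyte markers 1 of 8, with PTPRC below 4 throughout. Epithelial markers at that level were 7 of 10, led by keratins, with EPCAM and CDH1 below 4. The summed log2 level of the 10 epithelial markers was 75.2 to 75.5 in GM and 70.9 to 71.6 in HFM at 12 hours, and 70.7 to 70.9 and 69.2 to 70.1 at 24 hours. For the endothelial markers it was 61.7 to 62.4 and 56.4 to 56.8, then 57.5 to 57.8 and 55.4 to 57.1, and for the leukocyte markers 32.5 to 32.8 and 29.8 to 30.3, then 28.9 to 29.6 and 28.6 to 28.9. For the hepatocyte markers it was 38.4 to 38.7 and 37.5 to 37.7, then 36.7 to 37.7 and 37.4 to 38.3. The part of these differences in the results on the members was not tested.

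In HFM at 24 hours, 6 of the 9 measured ERAD genes were higher than in GM, and 2 of them rose about 5-fold. These were DNAJB9, an endoplasmic reticulum co-chaperone of HSPA5 that also restrains ERN1, and HERPUD1, a membrane protein of the ligase complex. SEL1L, the adaptor that stabilises SYVN1, rose less. The derlin DERL2 and the mannosidase-like proteins EDEM1 and EDEM2 rose by 0.41 to 0.45 log2 units. None was called lower, where called means a Benjamini-Hochberg adjusted p from limma under 0.05 over all 13130 genes. Of all genes tested, 58.1% were called in this comparison, 20.6% higher and 37.5% lower, and 2.28% were called higher by at least 2-fold. Arrays of the media did not overlap for 7 members, all higher in HFM (DERL1 among them), against 68.7% of all genes, 25.7% higher and 43% lower. The members' median change was 0.42 on the log2 scale, against -0.08 over all genes. Fewer copies of a transcript per cell and fewer cells that carry it cannot be told apart in these bulk RNA samples.

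**Figure D1:**
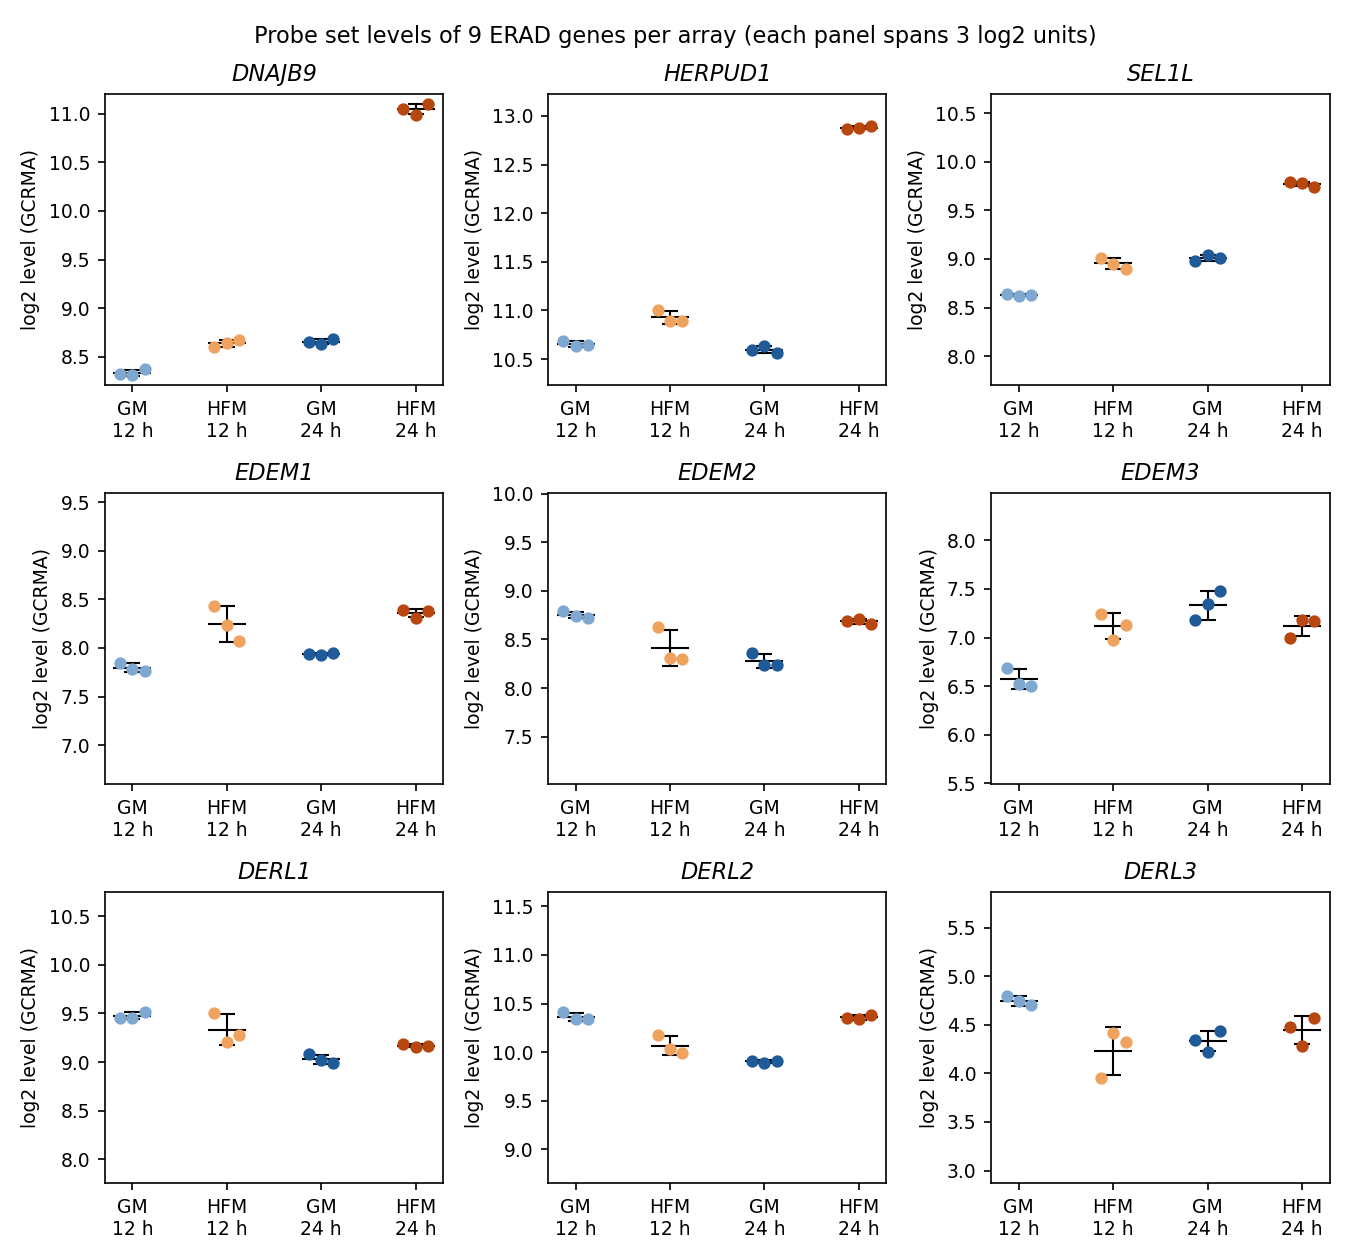
Log2 level (vertical axis, GCRMA values) of the 9 measured ERAD genes in GM and HFM at 12 and 24 hours, with points for single arrays and black bars for the mean and SD of 3 arrays. DNAJB9 and HERPUD1 lay at 10.99 to 11.10 and at 12.87 to 12.90 in HFM at 24 hours, above every other array, and EDEM2 and DERL2 were lowest in GM at 24 hours.

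DNAJB9 (probe set 202842_s_at) had log2 levels of 8.32, 8.32 and 8.37 in GM and 8.60, 8.64 and 8.67 in HFM at 12 hours. At 24 hours they were 8.65, 8.63 and 8.68 in GM and 11.05, 10.99 and 11.10 in HFM. The HFM arrays at 24 hours were thus more than 2 log2 units above the other 9 arrays, among which the GM arrays at 12 hours were lowest. The change in HFM at 24 hours was 2.39 ± 0.05 (SE, n = 3 against 3), or 5.25-fold, with an adjusted p of 2.5e-11, and DNAJB9 ranked 29 of 13130 genes by the size of its rise. At 12 hours it rose by 0.30 ± 0.05 (adjusted p = 0.00022). In the order of its levels, HFM at 12 hours and GM at 24 hours did not differ beyond their spread (-0.02 ± 0.05, adjusted p = 0.78).

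HERPUD1 (217168_s_at) gave 10.68, 10.63 and 10.65 in GM and 11.00, 10.89 and 10.89 in HFM at 12 hours. At 24 hours it gave 10.59, 10.64 and 10.57 in GM and 12.87, 12.88 and 12.90 in HFM. Both medium comparisons were free of overlap, and GM arrays at the 2 times overlapped. HERPUD1 rose in HFM by 0.27 ± 0.05 (SE, adjusted p = 0.00048) at 12 hours and by 2.28 ± 0.05 (adjusted p = 2.5e-11), or 4.87-fold, at 24 hours, where it ranked 33 of 13130. In GM it stood at -0.06 ± 0.05 from 12 to 24 hours (adjusted p = 0.32), so its lowest levels, in GM at both times, did not differ beyond their spread.

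SEL1L (202061_s_at) was 8.64, 8.61 and 8.63 in GM and 9.01, 8.95 and 8.90 in HFM at 12 hours, and 8.98, 9.04 and 9.02 in GM and 9.79, 9.78 and 9.74 in HFM at 24 hours. Every HFM array was above the GM arrays of its time. The rises in HFM were 0.33 ± 0.05 (SE, adjusted p = 8.6e-05) at 12 hours and 0.76 ± 0.05 (adjusted p = 5.1e-08), or 1.69-fold, at 24 hours. SEL1L also rose in GM from 12 to 24 hours, by 0.39 ± 0.05 (adjusted p = 1.6e-05). Its levels in HFM at 12 hours and GM at 24 hours did not differ beyond their spread (-0.06 ± 0.05, adjusted p = 0.35).

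The EDEM proteins, which trim mannose from misfolded glycoproteins or bind the trimmed product, went separate ways. EDEM1 (203279_at) was 7.85, 7.78 and 7.76 in GM and 8.44, 8.23 and 8.07 in HFM at 12 hours, and 7.94, 7.93 and 7.95 in GM and 8.39, 8.31 and 8.37 in HFM at 24 hours. It was higher in HFM at both times, by 0.45 ± 0.08 (SE, adjusted p = 0.00038) and 0.42 ± 0.08 (adjusted p = 0.00054), with the widest spread in HFM at 12 hours. Neither GM at 12 and 24 hours (adjusted p = 0.11) nor HFM at 12 and 24 hours (adjusted p = 0.23) passed the threshold under the spread shared by all 4 groups. The GM arrays of the 2 times did not overlap, however, whereas the HFM arrays did.

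EDEM2 (218282_at) was 8.79, 8.74 and 8.72 in GM and 8.62, 8.31 and 8.30 in HFM at 12 hours, and 8.36, 8.24 and 8.23 in GM and 8.69, 8.71 and 8.66 in HFM at 24 hours. It was therefore lower in HFM at 12 hours and higher at 24 hours, without overlap in either case. The changes were -0.34 ± 0.08 (SE, adjusted p = 0.003) and 0.41 ± 0.08 (adjusted p = 0.00074). The difference of the high levels, in GM at 12 hours and HFM at 24 hours, did not pass the threshold (adjusted p = 0.48). That test uses the spread shared by all 4 groups, and the arrays of these 2 groups did not overlap. The low levels, in HFM at 12 hours and GM at 24 hours, overlapped and did not differ beyond their spread (adjusted p = 0.21).

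EDEM3 (223243_s_at) was 6.69, 6.52 and 6.51 in GM and 7.24, 6.98 and 7.13 in HFM at 12 hours, and 7.18, 7.34 and 7.48 in GM and 6.997, 7.18 and 7.17 in HFM at 24 hours. The GM arrays at 12 hours were the lowest, and the other groups overlapped. EDEM3 rose in HFM at 12 hours by 0.55 ± 0.09 (SE, adjusted p = 0.00039) and stood at -0.22 ± 0.09 at 24 hours (adjusted p = 0.066). In GM it rose from 12 to 24 hours by 0.76 ± 0.09 (adjusted p = 2e-05). At 24 hours the value passed the threshold without the first GM array of 24 hours (-0.29, adjusted p = 0.023) and without the first HFM array of 12 hours, which enters only the shared spread (-0.22, adjusted p = 0.047).

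The derlins, rhomboid-like membrane proteins of the retrotranslocation channel, gave 3 patterns. DERL2 (218333_at) was 10.41, 10.35 and 10.34 in GM and 10.18, 10.03 and 9.99 in HFM at 12 hours, and 9.91, 9.89 and 9.91 in GM and 10.35, 10.34 and 10.38 in HFM at 24 hours. Like EDEM2 it was lower in HFM at 12 hours (-0.30 ± 0.06, SE, adjusted p = 0.00062) and higher at 24 hours (0.45 ± 0.06, adjusted p = 1.8e-05). HFM at 24 hours and GM at 12 hours, its highest levels, did not differ beyond their spread (-0.01 ± 0.06, adjusted p = 0.89), while the other neighbours in its order did.

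DERL1 (219402_s_at) was 9.46, 9.46 and 9.52 in GM and 9.51, 9.20 and 9.28 in HFM at 12 hours, and 9.08, 9.02 and 8.99 in GM and 9.19, 9.16 and 9.16 in HFM at 24 hours. The first HFM array at 12 hours lay among the GM arrays, and the other HFM arrays of that time below them. Neither medium comparison passed the threshold, with -0.15 ± 0.07 (SE, adjusted p = 0.089) at 12 hours and 0.14 ± 0.07 (adjusted p = 0.11) at 24 hours. Without that first HFM array the values were -0.23 (adjusted p = 0.00074) and 0.14 (adjusted p = 0.0082). From 12 to 24 hours in GM, DERL1 fell by 0.45 (adjusted p = 0.00014), but no neighbours in the order of its 4 levels passed the threshold. That test uses the spread shared by all 4 groups. The HFM arrays at 24 hours overlapped neither with HFM at 12 hours nor with GM at 24 hours.

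DERL3 (229721_x_at) was 4.79, 4.74 and 4.70 in GM and 3.95, 4.42 and 4.32 in HFM at 12 hours, and 4.34, 4.22 and 4.43 in GM and 4.48, 4.28 and 4.57 in HFM at 24 hours. These levels lie near the filter of log2 4, and the first HFM array at 12 hours was below it. The changes in HFM were -0.51 ± 0.11 (SE, adjusted p = 0.0021) at 12 hours and 0.11 ± 0.11 (adjusted p = 0.43) at 24 hours. GM at 12 hours was its highest level, and the other 3 groups did not differ beyond their spread from their neighbours (adjusted p = 0.51 and 0.43).

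**Figure D2:**
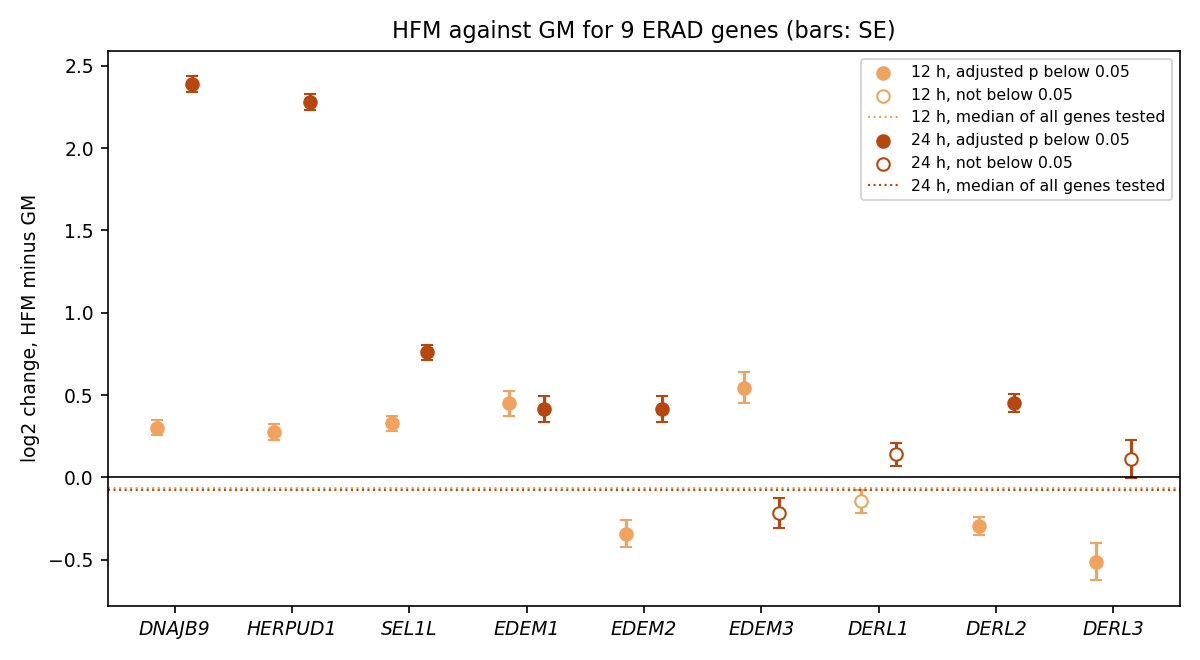
Log2 change of HFM against GM (vertical axis) for each measured ERAD gene at 12 and 24 hours, with SE bars, filled points for adjusted p under 0.05 and dotted lines for the median of all genes tested. At 24 hours DNAJB9 at 2.39 and HERPUD1 at 2.28 stand far above SEL1L at 0.76, and EDEM2 and DERL2 lie below 0 at 12 hours and above 0 at 24 hours.

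At 12 hours in HFM, 5 of the 9 genes rose (EDEM3, EDEM1, SEL1L, DNAJB9 and HERPUD1), 3 fell (DERL3, EDEM2 and DERL2) and DERL1 did not pass the test. Over all genes 61.9% were called at 12 hours, 28.9% higher and 33% lower, so a count of 8 of 9 is read against a background in which most genes were called. The members' rises lay between 0.27 and 0.55 log2 units, and none reached 2-fold, as 1.94% of all genes did. Arrays of the 2 media did not overlap for 8 members, 5 higher and 3 lower, against 63.6% of all genes, 30.4% higher and 33.2% lower. Without the first HFM array the same direction was called for these 8 genes and DERL1 was called lower as well, where 3958 of 13103 genes were called higher and 5022 lower. With all arrays the members' median change was 0.27, against -0.07 over all genes.

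The effect of HFM differed between the times for 8 of the 9 genes, as tested by the medium by time term. It was larger at 24 hours for DNAJB9 by 2.09 ± 0.07 (SE, adjusted p = 4.7e-09), for HERPUD1 by 2.01 ± 0.07 (adjusted p = 4.8e-09) and for SEL1L by 0.43 ± 0.07 (adjusted p = 0.00016). It moved upward by 0.76 ± 0.11 for EDEM2 (adjusted p = 0.00015), by 0.75 ± 0.08 for DERL2 (adjusted p = 8.4e-06), by 0.63 ± 0.16 for DERL3 (adjusted p = 0.0062) and by 0.29 ± 0.10 for DERL1 (adjusted p = 0.03). For EDEM3 it moved downward, by -0.76 ± 0.13 (adjusted p = 0.00048), and for EDEM1 it stood at -0.03 ± 0.11 (adjusted p = 0.81). Over all genes 52.8% were called in this comparison, 19.4% higher and 33.4% lower. DERL1's call was lost without any of 7 single arrays (adjusted p up to 0.068).

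The levels of most members also differed between the times in GM. From 12 to 24 hours in GM, 3 genes rose (EDEM3 by 0.76, SEL1L by 0.39 and DNAJB9 by 0.32) and 4 fell (EDEM2 by 0.48, DERL2 by 0.46, DERL1 by 0.45 and DERL3 by 0.41), where 69.9% of all genes were called, 29.4% higher and 40.5% lower. The 3 GM arrays at 12 hours had higher hybridisation controls (10.60 to 10.63 log2) than the 3 at 24 hours (10.23 to 10.42), so time and this difference between arrays go together in GM. With a term for hybridisation control level, high or low, EDEM2 stood at -0.16, DERL2 at -0.29, DERL1 at -0.18 and DERL3 at -0.83. All GM arrays at 12 hours were high and all those at 24 hours low. The size of the term was therefore set by the first HFM array at 12 hours against the other HFM arrays of that time. It cannot separate time from the control level in GM, and no conclusion is drawn from it. The second probe set of DERL2 stood at 0.04 in GM (adjusted p = 0.79), and the mean of its probe sets at -0.21 (adjusted p = 0.0094). EDEM3, SEL1L and DNAJB9 also rose in HFM at 12 hours, and EDEM2, DERL2 and DERL3 fell there, but the GM arrays at 12 hours serve in both comparisons, and no likeness is claimed. Set directly against GM at 24 hours, HFM at 12 hours was higher for HERPUD1 (0.33 ± 0.05, SE, adjusted p = 0.00047), EDEM1 (0.31 ± 0.08, adjusted p = 0.0096), DERL1 (0.30 ± 0.07, adjusted p = 0.0066) and DERL2 (0.16 ± 0.06, adjusted p = 0.036). In that comparison 36% of all genes were called, 22% higher and 14.1% lower, and the other 5 members did not pass the test.

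From 12 to 24 hours in HFM, 5 members rose and none was called lower, where 63.1% of all genes were called, 20.1% higher and 43.1% lower. DNAJB9 rose by 2.41 ± 0.05 (SE, adjusted p = 2.8e-11), or 5.32-fold, and HERPUD1 by 1.95 ± 0.05 (adjusted p = 9.8e-11), or 3.87-fold. SEL1L rose by 0.82, DERL2 by 0.29 and EDEM2 by 0.28. EDEM1 stood at 0.11 (adjusted p = 0.23), DERL3 at 0.21 (adjusted p = 0.12), DERL1 at -0.16 (adjusted p = 0.064) and EDEM3 at -0.001 (adjusted p = 1). These values share the HFM arrays at 24 hours with the medium comparison at that time.

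The members had 23 probe sets in all, and the 14 that did not represent a gene served as a check, fitted with all probe sets of the array. The other 2 probe sets of DNAJB9 gave 2.69 ± 0.10 and 3.28 ± 0.12 (SE) at 24 hours, and the other probe set of HERPUD1 gave 2.29 ± 0.13, although its mean level was only 4.65. For SEL1L, 202062_s_at gave 0.67 and 202064_s_at 0.70, whereas the dim 202063_s_at stood at -0.15 (adjusted p = 0.36). The second probe set of DERL2 was also higher at 24 hours, by 0.71 (adjusted p = 2.9e-05), but at 12 hours it stood at 0.19 (adjusted p = 0.13), so the falls of DERL2 in HFM at 12 hours and over time in GM rest on 218333_at. Of the other probe sets of genes called at 24 hours, 6 of 7 were called in the same direction and 0 in the opposite one (limma over all probe sets). At 12 hours these counts were 4 of 11 and 0 in the opposite direction. In the fit of genes, 20.6% of all genes were called higher and 37.5% lower at 24 hours. At 12 hours these shares were 28.9% and 33%. The shares over all probe sets were not counted. In the fit of all probe sets at 12 hours, 202843_at of DNAJB9 rose by 0.62 (adjusted p = 0.0012), and 1554462_a_at stood at 0.20 (adjusted p = 0.13). The other probe set of HERPUD1 stood at 0.165 (adjusted p = 0.34). For SEL1L, 202062_s_at rose by 0.31 (adjusted p = 0.012), while 202064_s_at stood at 0.02 (adjusted p = 0.9) and 202063_s_at at 0.08 (adjusted p = 0.61). EDEM1 and EDEM2 had a single probe set each.

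The 4 probe sets of DERL1 did not give a common picture. Its 222543_at, with a mean of 9.24, close to the 9.25 of the one used, stood at -0.05 (adjusted p = 0.67) at 12 hours and -0.03 (adjusted p = 0.85) at 24 hours, and at -0.005 from 12 to 24 hours in GM (adjusted p = 0.97), where the one used fell by 0.45. In the fit of all probe sets, the medium by time difference of DERL1 was 0.29 for 219402_s_at (adjusted p = 0.073), 0.02 for 222543_at (adjusted p = 0.92) and 1.42 for the dim 225488_at (adjusted p = 0.00075). The EDEM3 probe sets 220342_x_at and 220926_s_at rose at 12 hours by 0.56 (adjusted p = 0.00079) and 0.48 (adjusted p = 0.03), as the one used did. At 24 hours they stood at -0.05 (adjusted p = 0.76) and 0.17 (adjusted p = 0.5). Their medium by time differences were -0.61 (adjusted p = 0.0052) and -0.315 (adjusted p = 0.32). Of the other DERL3 probe sets, 229719_s_at stood at 0.26 (adjusted p = 0.11) at 12 hours, opposite in sign to the one used.

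**Figure D3:**
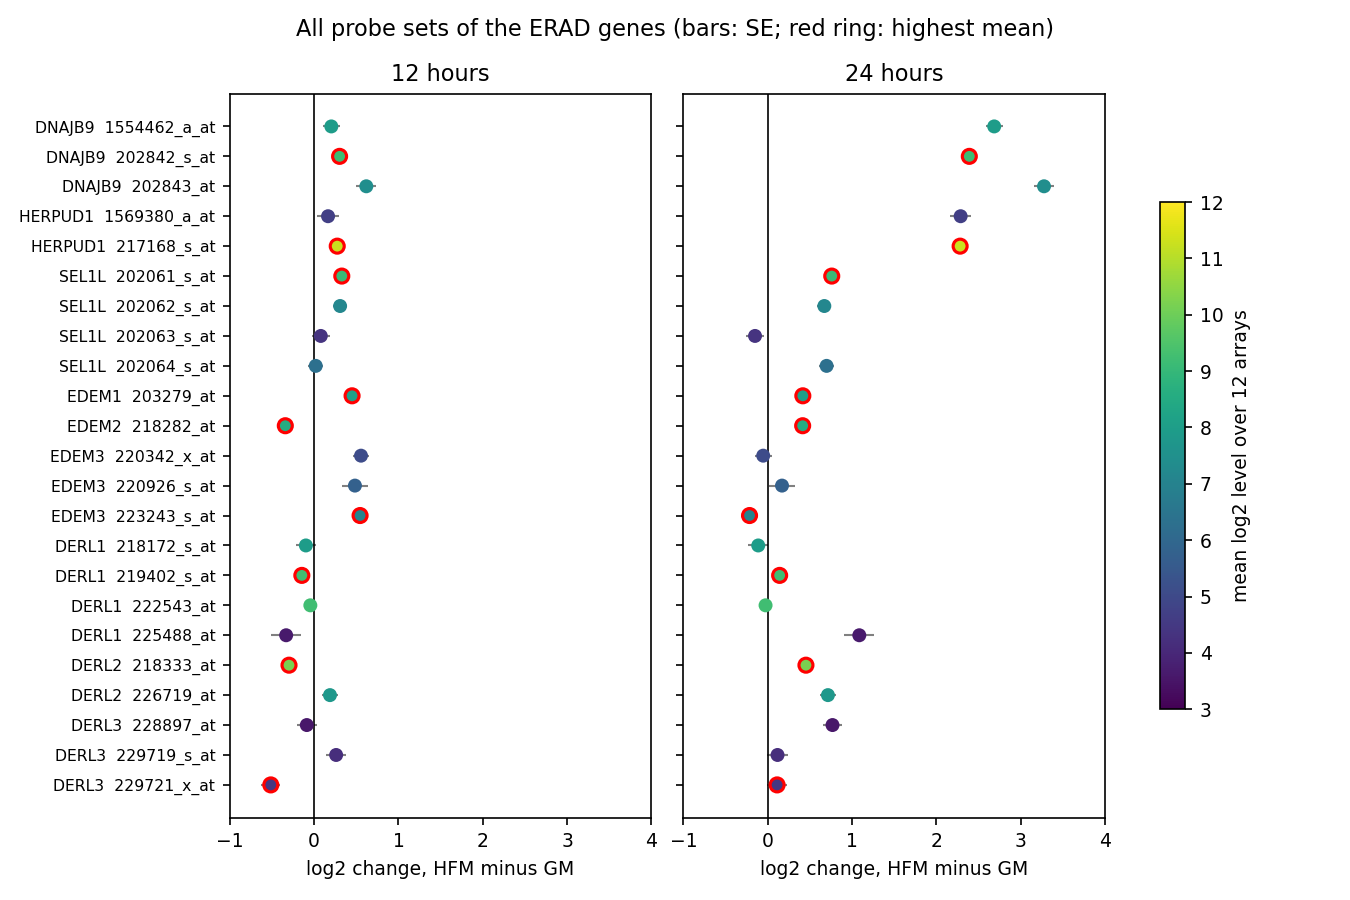
Log2 change of HFM against GM (horizontal axes) for each of the 23 probe sets of the 9 genes at 12 and 24 hours, with SE bars, colour for the mean log2 level over 12 arrays and a red ring for the probe set used. All probe sets of DNAJB9 and HERPUD1 lie at 2.28 or more at 24 hours, and those of DERL1 spread from -0.11 to 1.09.

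Genes with a like pattern were sought by the root mean square difference of log2 levels over the 12 arrays, after each gene's mean was subtracted. Nearest to DNAJB9 were GEM (0.15), NF1 (0.17) and LOC100132356 (0.17), and nearest to HERPUD1 were NF1 (0.11), GEM (0.12) and GNRH1 (0.14). HERPUD1 was the seventh nearest gene to DNAJB9, and DNAJB9 the ninth nearest to HERPUD1, at a difference of 0.22. DERL2 was the third nearest gene to EDEM2 and EDEM2 the fourth nearest to DERL2, at 0.05. SEL1L stood at 0.69 from DNAJB9 and 0.57 from HERPUD1. These distances are descriptions over arrays that share 4 groups.

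Other genes of the pathway were split by their step. Among lectins, mannose trimming enzymes and helpers in the lumen, 13 of 14 tested genes rose in HFM at 24 hours, none fell and TXNDC11 did not pass the test, where 20.6% of all genes were called higher and 37.5% lower. The chaperone HSPA5, to which DNAJB9 delivers substrates, rose by 1.53 ± 0.06 (SE, adjusted p = 1.7e-09), the folding sensor UGGT2 by 1.24 ± 0.11 and the mannosidase MAN1A1 by 1.24 ± 0.15. The list median was 0.52, against -0.08 over all genes. At 12 hours, where 28.9% of all genes were called higher and 33% lower, 6 rose and 1 fell, led by MAN1A2 at 0.78, the chaperone HSP90B1 at 0.65 and the lectin ERLEC1 at 0.63, while HSPA5 stood at -0.001 (adjusted p = 0.99). Without the first HFM array, 8 rose and 3 fell at 12 hours, where 3958 of 13103 genes were called higher and 5022 lower.

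Among other membrane ligases, conjugating enzymes and adaptors, 6 of 23 rose and 4 fell in HFM at 24 hours, with a median of 0.05, beside 20.6% of all genes called higher and 37.5% lower. The share that rose is near that of all genes. The ligase TMEM129 rose by 1.34 ± 0.10 (SE, adjusted p = 2.3e-07) and FAM8A1, a cofactor of the SYVN1 complex, by 0.83 ± 0.05 (adjusted p = 7.4e-08). The conjugating enzyme UBE2J2 fell by 0.80 (adjusted p = 3.1e-07). With each array centred on its median 14 rose and 4 fell, where 4852 of all 13130 genes were called higher and 3434 lower. At 12 hours 9 rose and 6 fell, beside 28.9% and 33% of all genes, led by DNAJB14 at 0.89, FAM8A1 at 0.79 and AUP1 at -0.74.

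Genes of extraction by the p97 ATPase and of handling in the cytosol were more often lower than higher in HFM at 24 hours, with 14 of 26 lower, 4 higher and a median of -0.21. Lower calls outnumbered higher ones over all genes too, at 37.5% and 20.6%. VCP, which is p97 itself, fell by 0.47 (adjusted p = 3.2e-06), and its cofactors NPLOC4 and UFD1 by 0.64 and 0.60; these 3 were picked for their role after the values were seen. FAF2, which recruits p97 to the membrane, fell by 1.65 ± 0.08 (SE, adjusted p = 6.2e-09) and SGTA by 0.67, whereas the deubiquitinase YOD1 rose by 1.42 ± 0.08 (adjusted p = 1.8e-08). Centring each array turned 4 higher and 14 lower into 8 and 10, where 4852 of all 13130 genes were called higher and 3434 lower. The size of the imbalance in this list therefore depends on the scaling. Lower calls in the list still outnumbered higher ones with centring, unlike those over all genes. At 12 hours 9 rose and 9 fell, beside 28.9% and 33% of all genes, led by USP25 at 0.92, YOD1 at 0.81 and UBXN4 at 0.71.

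Of 12 regulators of the unfolded protein response, 9 rose and 2 fell in HFM at 24 hours, beside 20.6% and 37.5% of all genes, with a median of 0.54. The 2 that fell were CREB3 (-0.40, adjusted p = 0.0043) and ATF4 (-0.16, adjusted p = 0.036). The transcription factor DDIT3 rose by 3.22 ± 0.09 (SE, adjusted p = 1.4e-10), the sensor ERN1 by 1.73 ± 0.10 and XBP1, its splicing target, by 0.81 ± 0.09 (adjusted p = 6.7e-06). At 12 hours 6 rose and 3 fell, beside 28.9% and 33% of all genes, led by DDIT3 at 1.12, ATF6 at 0.88 and ERN1 at 0.85, and XBP1 stood at -0.06 (adjusted p = 0.58). The splicing of XBP1 was not analysed here. Whether the lists differ from each other was not tested.

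**Figure D4:**
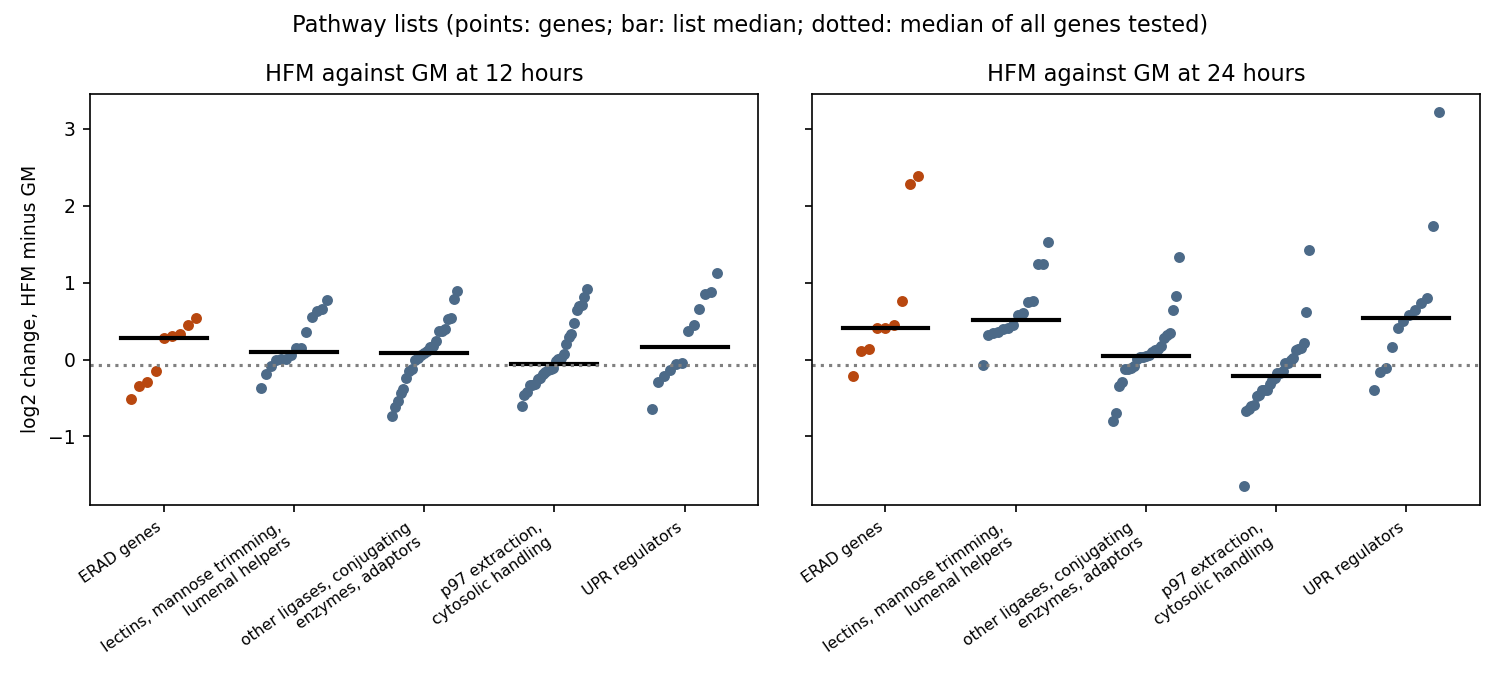
Log2 change of HFM against GM (vertical axis) for the ERAD genes and 4 other lists at 12 and 24 hours, with points for genes, black bars for list medians and a dotted line for the median of all genes tested. At 24 hours the medians are 0.42 for the ERAD genes, 0.52 for lumenal helpers, 0.05 for other ligases and adaptors, -0.21 for p97 and cytosolic genes and 0.54 for regulators (UPR, unfolded protein response).

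The scaling of the arrays bears on the directions at 24 hours. Subtracting from each array its own median over tested genes moved the median change of all genes from -0.08 to 0.10, and the share of calls that were higher from 35.4% to 58.6%. Under it 7 members were called higher at 24 hours and 0 lower, where 4852 of 13130 genes were called higher and 3434 lower. Under repeated quantile normalisation the members' counts were the same, where 2918 of 13123 genes were called higher and 4957 lower. The added gene was DERL1 in both. For the medium by time difference, centring moved the share of calls that were higher from 36.8% to 61.8% and repeated quantile normalisation to 47.4%, and the members' counts stayed at 7 higher and 1 lower. Of all genes, 5068 were then called higher and 3134 lower with centring, and 3487 and 3872 with quantile normalisation. From 12 to 24 hours in HFM centring moved that share from 31.8% to 57.5%.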

How the data were processed

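Total RNA of Sk-hep1 cells, 3 samples per group, was made into biotin-labelled cRNA and measured on 12 Affymetrix arrays. The deposited log2 values come from GCRMA as run by the authors, according to the submitters' processing notes. Its version and filters are not given in the sources. Precision is limited by the number of arrays.

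In the platform annotation, 41097 probe sets had 1 symbol, 1801 several and 11777 none. Each of 19775 genes was represented by the probe set with the highest mean. Those reaching log2 4 on 3 arrays or more were fitted with limma 3.58.1 in R 4.3.3 (lmFit, eBayes; 4 group means, 8 residual degrees of freedom). Called means a Benjamini-Hochberg adjusted p under 0.05 over 13130 genes, and errors are SE unless stated. The fit was tested on simulated data.

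The members and lists were chosen with earlier results of these data known. Named genes were all members, up to 3 called genes of each other pathway list with the largest changes at 12 and at 24 hours, and the 3 genes nearest to DNAJB9 and to HERPUD1. VCP, NPLOC4, UFD1, TXNDC11, CAMK2D, TFE3 and KDELR1, and values of HSPA5 and XBP1 at 12 hours, were added after their values were seen. The same holds for CREB3 and ATF4. The deviations of same-numbered arrays correlated at -0.17 to 0.42, over 0.1 in 7 of 18 pairs. Since a pairing was accepted only with every pair over 0.1, no block was used. Alternatives were other filters, probe set rules, scalings and variance models, a replicate block, a term for hybridisation control level, and leaving out each array. Figures were drawn with matplotlib 3.10.9.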

Additional observations from a re-analysis of the deposited data

Results flagged for a closer look

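The effect of HFM at 24 hours differed from that at 12 hours for 8 of the 9 measured ERAD genes, by the medium by time term of limma. The difference, as the log2 change at 24 hours minus that at 12 hours, was 2.09 for DNAJB9, 2.01 for HERPUD1, 0.43 for SEL1L, 0.76 for EDEM2, 0.75 for DERL2, 0.63 for DERL3, 0.29 for DERL1 and -0.76 for EDEM3. A difference between times was called for 52.8% of all genes. On the probe sets used, EDEM2 and DERL2 changed sign between the times, each with both changes called, and no array overlapped with the other medium at either time. The second probe set of DERL2 was not lower at 12 hours (0.19, adjusted p = 0.13, limma over all probe sets). DERL1's difference was 0.02 on its probe set 222543_at (adjusted p = 0.92 in the same fit). In that fit EDEM3's was -0.61 on 220342_x_at (adjusted p = 0.0052) and -0.315 on 220926_s_at (adjusted p = 0.32).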

How the results depend on the processing

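Over 971 recomputed values of the 9 members in 5 comparisons, 923 kept their direction and their side of the threshold, 15 lost and 30 gained a call, and 3 turned. Those 3 were EDEM3 from 12 to 24 hours in HFM with the mean of its probe sets (0.21) and with centred arrays (0.22), and DERL1 there with the mean of its probe sets (0.26); none was called in the values reported. Members called from 12 to 24 hours in HFM rose from 5 to 8 with centred arrays, while all genes called went from 8290 to 8923 of 13130. Other ligases and adaptors called at 24 hours rose from 10 to 18, while all genes called went from 7623 to 8286. Leaving out single arrays gave 6 to 11 lumenal helpers and 8 to 9 members called at 12 hours, beside 7137 to 8980 of all genes. It gave 6 to 8 members at 24 hours, beside 6915 to 8731 genes. For the difference between times it gave 7 to 8 members, beside 6197 to 8158 genes. DNAJB9, HERPUD1 and SEL1L kept their calls in both medium comparisons under all 22 alternatives, at 24 hours with changes of 2.37 to 3.28, 2.27 to 2.46 and 0.49 to 0.94. Taken singly, however, some other probe sets of DNAJB9 and SEL1L and the other one of HERPUD1 were not called at 12 hours. At 12 hours the falls of DERL2 (-0.06, adjusted p = 0.46) and DERL3 (-0.11, adjusted p = 0.092) were lost when all probe sets of the gene were averaged, and for both these include probe sets not called lower. With a term for hybridisation control level EDEM2 stood at -0.13 at 12 hours and at -0.16 over time in GM. This term leaves a single HFM array in the 12-hour comparison, and that array also sets the value in GM. These 2 values therefore rest on that array and decide nothing about the falls. With the replicate block, which rests only on shared numbers, 8 members were called at 12 hours and 6 at 24 hours, as without it. Of all 13130 genes, 8267 and 7757 were called with the block. Of 12 arrays, 7 correlated best with their own number. With 3 replicate numbers in use, some such matches may arise without any pairing. DERL3 was left untested at a filter of log2 6 and without cross-hybridising probe set types. Signal near background limits DERL3 and the dim probe sets.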

Other observations

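Dim probe sets of DERL1 and DERL3 showed changes that the brighter ones did not. DERL1's 225488_at, with a mean log2 level of 3.60 and 2 of 12 arrays at 4 or more, rose in HFM at 24 hours by 1.09 ± 0.18 (SE, adjusted p = 0.00025), and from 12 to 24 hours in HFM by 1.08 (adjusted p = 0.00025). DERL3's 228897_at, with a mean of 3.59 and 2 of 12 arrays at 4 or more, rose in HFM at 24 hours by 0.77 ± 0.12 (adjusted p = 0.00013). These probe sets were singled out after their values were seen, and the other 3 of DERL1 stood at -0.11, 0.14 and -0.03 at 24 hours.

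For each of the 9 members, the nearest gene lay outside the ERAD list. The search covered all 13130 genes tested, of which 9 were members, so this was likely from the start. CAMK2D lay at a root mean square difference of 0.04 from SEL1L, with changes in HFM of 0.33 at 12 and 0.78 at 24 hours, and TFE3 and KDELR1, a retrieval receptor of endoplasmic reticulum proteins, at 0.04 from DERL2. KDELR1 changed by -0.25 at 12 and 0.40 at 24 hours. These genes were named after the distances were seen.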
